A study of Mus musculus with 2 samples.

Results

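The genes for retinoic acid synthesis, retinol uptake, and binding and sensing of retinoic acid were examined in embryonic mouse ureters cultured with or without NOGGIN. They are 10 of the 21337 genes that could be tested: the uptake receptors Stra6l and Stra6, the retinaldehyde dehydrogenases Aldh1a2, Aldh1a1 and Aldh1a3, the cellular retinoic acid binding proteins Crabp1 and Crabp2, and the nuclear receptors Rara, Rarb and Rarg. Every gene probe whose accession belonged to one of these symbols was taken, which gave 13 of the 39429 probes. This rule for probes used no measured value, but the 10 genes were chosen with earlier results of these data known. Rarb has 3 probes, Rara 2 and each other gene 1. All 13 passed the filter on dim probes.

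Retinoic acid is made inside cells from vitamin A (retinol). Retinol travels in blood on the carrier RBP4 and enters cells through receptors of the STRA6 type. It is oxidised to retinaldehyde and then, by the ALDH1A enzymes, to retinoic acid, which CRABP proteins carry to the RAR receptors or to CYP26 enzymes that degrade it. RARs bind DNA together with RXRs and change transcription of nearby genes. In the embryonic kidney and ureter, retinoic acid made in mesenchymal cells is known to act on the neighbouring epithelium.

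The NOGGIN group consisted of 2 cultures grown with 10 µg/ml of NOGGIN, a secreted protein that captures bone morphogenetic proteins (BMPs), and the control group of 2 cultures grown in NOGGIN-free medium. All cultures held ureters from wildtype NMRI embryos of mixed sex, dissected at E12.5 and cultured on transwell membranes over 18 h. Each of 2 Agilent 2-colour arrays carried RNA of 1 NOGGIN and 1 control culture, with the dyes exchanged between replicate 1 and replicate 2. How many embryos or litters entered a culture is not given, so p-values measure only the spread between these samples, which may be technical.

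Levels below are log2 normalised signals of a probe, which have no meaning between probes. Where both cultures of a group lie above or below both of the other, this describes 2 against 2 cultures and is no test. The share of all genes with such levels was not computed. Ratios are log2 of the NOGGIN-labelled over the control-labelled signal on the same array, given as mean ± SD (n = 2). Their direction follows the dyes in the labels and is not settled. Fold changes in the authors' deposited table run the other way (r with these ratios of -0.981 on replicate 1 and -0.985 on replicate 2, over 13356 bright probes). The sample titles read "NOGGIN treated vs control". If that is the order of the deposited ratio, the titles and the dyes are in conflict. All 11 BMP-SMAD target genes listed as a check, which BMP signalling is known to switch on, were higher in the NOGGIN-labelled channel, with a median log2 ratio of 1.37. Id2 was at 2.73 and the receptor-activated SMAD gene Smad9 at 2.37. Bambi, 1 of the 11, was not well above background in the control-labelled channel of either array. It entered only through the channel where it was higher. A protein that captures BMPs would lower such genes, so this check goes against the direction taken from the dyes. The check list was chosen with earlier results of these data known, so it is not independent of them and does not settle the direction. If the sign is turned, every "higher" below becomes "lower" and the reverse, while sizes and p-values stay. The markers of ureteric epithelium and ureteric mesenchyme were measured in full (15 of 15 and 11 of 11). Between 67.3% and 74.3% of gene spots per channel were well above background and 0 were saturated.

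The sequences just before the start site are shown for the most changed gene among the uptake receptors, the enzymes and the binding proteins, and for Rarb, whose promoter carries a well-known retinoic acid response element. They come from RefSeq promoter windows of GRCm38.p6, which run from 250 bases before to 50 after a start site. Each is read 5′ to 3′ on the gene's own strand. In Stra6l (chr4:45848716-45848815, plus strand), the uptake receptor gene with the largest difference, no capitals are used because no motif searched was found. In Aldh1a2 (chr9:71215669-71215708, plus strand) and Crabp1 (chr9:54764633-54764672, plus strand), the capitals mark GGCGCC, a GC-rich motif that SMAD proteins are known to bind. In Rarb (chr14:16575477-16575566, minus strand) they mark a direct repeat of receptor half-sites with 5 bases between them (DR5).
Stra6l: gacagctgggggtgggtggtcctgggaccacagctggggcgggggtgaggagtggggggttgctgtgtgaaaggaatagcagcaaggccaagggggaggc
Aldh1a2: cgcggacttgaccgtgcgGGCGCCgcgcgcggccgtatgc
Crabp1: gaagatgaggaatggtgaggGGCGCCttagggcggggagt
Rarb: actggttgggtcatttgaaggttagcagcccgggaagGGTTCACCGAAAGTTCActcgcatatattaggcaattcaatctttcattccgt

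The motif search covered both strands of 17 windows belonging to 8 of the 10 genes. A direct repeat was any pair of receptor half-sites with 5, 2 or 1 bases between them (DR5, DR2, DR1). The half-site was AGGTCA itself or one of its variants, among them GGGTCA, then also AGTTCA, and finally GGTTCA. DR5 was found in 32 of all 32851 windows (0.0974%), DR2 in 0.268% and DR1 in 0.222%. The Rarb repeat lies 53 to 37 bases before the start site, and no other window of these genes held one of these repeats. GGCGCC was found in 11.9% of all windows. Aldh1a2 has it at 243 to 238 and 102 to 97 bases before the start site and Crabp1 at 95 to 90, and the motifs overlapped no direct repeat. The SMAD palindrome GTCTAGAC, found in 0.213% of all windows, was in none of the 17. A match describes letters and does not show binding.

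Of the 10 genes, 3 were lower in the NOGGIN-labelled cultures (Stra6l, Aldh1a2 and Aldh1a1), 1 was higher (Crabp1) and 6 did not pass an adjusted p of 0.05 in limma, a linear model whose p-values were adjusted by Benjamini-Hochberg over all 21337 genes. Over all genes 4.03% were called lower and 3.95% higher. The 10 genes were chosen with earlier results of these data known, so the shares of all genes give scale only and no test of the list was run. At least 1.5-fold lower on both arrays were 2 of the 10, Stra6l and Aldh1a2, against 1.55% of all genes, and 0 were at least 1.5-fold higher on both arrays, against 1.35%. The median log2 ratio of the 10 genes was -0.18 (-0.14 on replicate 1 and -0.23 on replicate 2), while that of all genes was 0.00083. Mean ratios were below 0 for 7 of the 10 genes and for 10606 of the 21337.

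**Figure D1:**
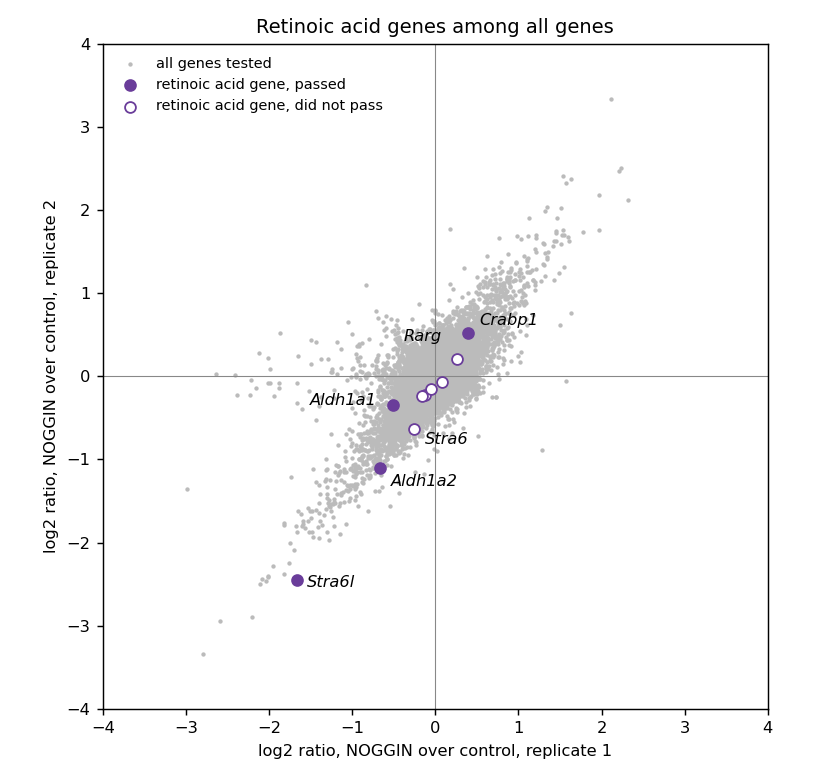
Log2 ratio of NOGGIN-labelled over control-labelled signal on replicate 1 (horizontal axis) and replicate 2 (vertical axis) for all 21337 genes (grey) and the 10 retinoic acid genes (purple, filled where the gene passed in limma, open where it did not). Stra6l, at -1.67 and -2.45, lies near the lower left end of all genes, Aldh1a2 at -0.66 and -1.10 lies between it and the main cloud, and the other 8 genes lie within or at the edge of the cloud.

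Of the 2 uptake receptor genes 1 was lower. Stra6l, which encodes a membrane receptor for RBP4-bound retinol also called RBPR2, had log2 signals of 8.02 and 7.56 in the NOGGIN-labelled cultures and 9.69 and 10.01 in the control-labelled cultures of replicates 1 and 2. Both NOGGIN-labelled cultures were far below both control-labelled ones, and the probe was well above background on every array. The log2 ratio was -1.67 on replicate 1 and -2.45 on replicate 2, a mean of -2.06 ± 0.55 or a 4.18-fold lower signal (95% confidence interval of the log2 ratio -2.54 to -1.58, limma adjusted p = 0.00756). Among the 21337 genes it had rank 12 counted from the lowest ratio. Its 4 usable spots on replicate 1 lay between -1.79 and -1.55 and its 3 usable spots on replicate 2 between -2.51 and -2.34. The other spot of replicate 2, left out because the scanner software marked it as an outlier, was at -1.77, near the spots of replicate 1. The authors' deposited table lists signed fold changes of 4.06 and 9.13 for this probe.

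Stra6 encodes the RBP4 receptor known best from the eye. It had log2 signals of 13.57 and 13.20 in the NOGGIN-labelled cultures and 13.83 and 13.84 in the control-labelled cultures. The control-labelled cultures were nearly equal. The log2 ratio of -0.45 ± 0.27 did not pass (limma adjusted p = 0.0832), although its 95% interval, -0.73 to -0.17, leaves out 0. The difference was larger on replicate 2 (-0.63) than on replicate 1 (-0.26). So it was for Stra6l, Aldh1a2, Aldh1a3, Rara, Crabp1 and Crabp2, whereas Aldh1a1 and Rarg differed more on replicate 1.

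Of the 3 synthesis enzyme genes 2 were lower. Aldh1a2 encodes RALDH2, the enzyme that makes most retinoic acid in the mid-gestation mouse embryo and that is known from the stroma and mesothelium of the urogenital region. Its log2 signals were 15.89 and 15.62 in the NOGGIN-labelled cultures and 16.56 and 16.72 in the control-labelled cultures. Both NOGGIN-labelled cultures were lower than both control-labelled ones. The log2 ratio was -0.66 on replicate 1 and -1.10 on replicate 2, with a mean of -0.88 ± 0.31, a 1.84-fold lower signal (95% interval -1.19 to -0.58, limma adjusted p = 0.0192). Its 8 spots gave ratios from -0.77 to -0.57 on replicate 1 and from -1.15 to -1.05 on replicate 2.

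Aldh1a1 encodes RALDH1, an aldehyde dehydrogenase with retinaldehyde among its substrates. It had log2 signals of 11.38 and 11.87 in the NOGGIN-labelled cultures and 11.89 and 12.22 in the control-labelled cultures. The highest NOGGIN-labelled and the lowest control-labelled level were nearly the same, but within each array the NOGGIN-labelled signal was the lower one. The log2 ratio of -0.43 ± 0.11, or 1.34-fold lower, passed narrowly (95% interval -0.63 to -0.22, limma adjusted p = 0.0425). The call was lost under 4 of 13 other ways of processing, where the adjusted p was 0.0593 to 0.154. The probe of Aldh1a7, a near-identical copy of the gene, was at -0.099 ± 0.17 (adjusted p = 0.585). Whether the Aldh1a1 probe also takes up Aldh1a7 RNA was not tested.

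Aldh1a3, which encodes a further RALDH enzyme, had log2 signals of 10.32 and 10.17 in the NOGGIN-labelled cultures and 10.44 and 10.40 in the control-labelled cultures. Both NOGGIN-labelled levels lay just under both control-labelled ones. The ratio of -0.17 ± 0.076 did not pass in limma (adjusted p = 0.257), with a 95% interval from -0.37 to 0.020.

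**Figure D2:**
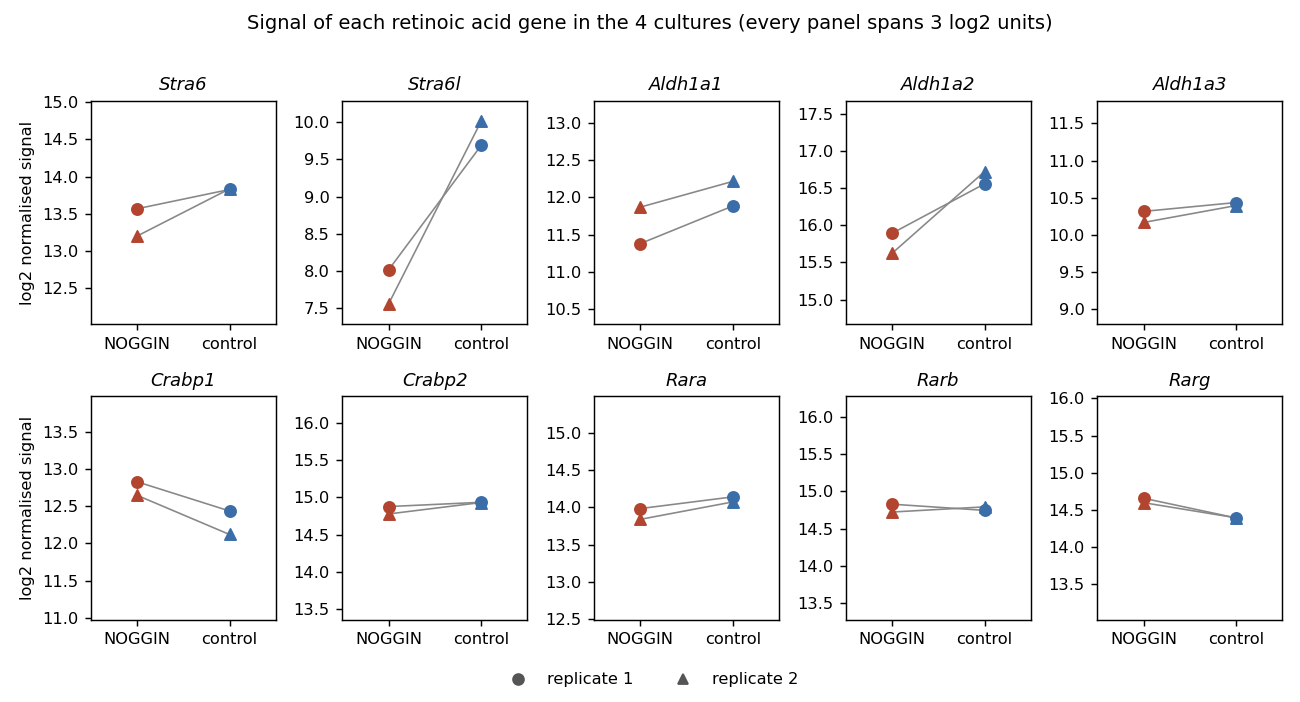
Log2 normalised signal (vertical axis) of each retinoic acid gene in the NOGGIN-labelled (red, left) and control-labelled (blue, right) cultures, with circles for replicate 1, triangles for replicate 2 and a grey line joining the cultures on the same array. Every panel spans 3 log2 units, so slopes may be compared, whereas heights may not be compared between panels. Stra6l drops most steeply towards NOGGIN, to 8.02 and 7.56 against 9.69 and 10.01 in control, and Rarb is nearly flat.

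Ureters were profiled whole, so fewer cells of a type and less RNA per cell cannot be told apart in any of these ratios. Marker genes of several cell types differed between the same cultures. Over all genes 4.03% were called lower and 3.95% higher. Of 5 renal stroma markers, 4 were lower and 0 higher, with a median log2 ratio of -1.17. Fibin was at -1.37 and Ntn1 at -1.22, and the summed signal of the list was 142419 and 129976 in the NOGGIN-labelled cultures of replicates 1 and 2, against 201034 and 214448 in the control-labelled ones. Of 8 smooth muscle markers, 5 were lower and 0 higher (median -0.92, Acta2 -1.16, Tagln -1.09), with summed signals of 246211 and 256788 in the NOGGIN-labelled cultures, against 509295 and 499421 in the control-labelled ones.

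Of 7 measured mesothelium markers, 1 was lower and 0 higher (median -0.039), where 4.03% of all genes were called lower and 3.95% higher. Wt1 was at -0.81 ± 0.39 (limma adjusted p = 0.0354) and Krt7 at -0.31 without passing. The summed signal was 21738 and 20548 in the NOGGIN-labelled cultures and 26571 and 30196 in the control-labelled ones. Such sums weight bright probes most, here Krt7 and Wt1, and Upk3b (0.24) and Podxl (0.23) had ratios above 0 without passing. Of 5 measured Müllerian and Wolffian duct markers, 2 were lower (Lhx1 -0.75 and Emx2 -0.49), with sums of 8070 and 7906 in the NOGGIN-labelled cultures, against 10386 and 10206 in the control-labelled ones. Bnc1 and Wnt7a, of the mesothelium and duct lists, are not among the genes kept. The part of these cell types in the lower Stra6l, Aldh1a2 and Aldh1a1 signals was not tested.

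In the other marker lists, counts again stand beside 3.95% of all genes called higher and 4.03% lower. Ureteric epithelium had 2 of 15 higher and 0 lower (median 0.12). Those were Upk2 at 0.61 and Foxa1 at 0.55, and Upk1a was at 0.58 without passing. Ureteric mesenchyme had 2 higher and 2 lower of 11 (median -0.056). Tbx18 was at 1.25 and Tcf21 at 0.62, while Col1a2 and Ptch1 were both at -0.43. The bud tip had 1 of 5 lower (Wnt11, -0.51) and Gfra1 at 0.30 without passing, with a median of 0.023. In limma 0 members passed among 5 measured nephron progenitor markers (median 0.22, led by Sall1 at 0.45 and Crym at 0.39), 6 endothelium markers (0.18, led by Cdh5 at 0.34 and Emcn at 0.25), 6 neural markers (0.063, with Sox10 at -0.29) and 5 macrophage markers (-0.074, led by Aif1 at -0.49 and Adgre1 at -0.28).

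Of the 2 binding protein genes 1 was higher. Crabp1 encodes a cytosolic retinoic acid binding protein. It had log2 signals of 12.83 and 12.65 in the NOGGIN-labelled cultures and 12.44 and 12.12 in the control-labelled cultures. Both NOGGIN-labelled cultures were higher. The log2 ratio was 0.39 on replicate 1 and 0.53 on replicate 2, with a mean of 0.46 ± 0.095, a 1.38-fold higher signal (95% interval 0.26 to 0.66, limma adjusted p = 0.0324). In the authors' deposited table, where the fold is listed as -1.31 and -1.45, the same fit gave an adjusted p of 0.0586.

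Crabp2 encodes the binding protein known to hand retinoic acid to RARs in the nucleus. It had log2 signals of 14.88 and 14.78 in the NOGGIN-labelled cultures and 14.93 in both control-labelled cultures. The groups lay close together. The ratio of -0.11 ± 0.068 did not pass in limma (adjusted p = 0.476), and its 95% interval of -0.30 to 0.086 ends below the ratio of Crabp1. The difference between Crabp1 and Crabp2 was not tested.

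None of the 3 receptor genes passed in limma. Rarg was the one with the largest ratio, with log2 signals of 14.66 and 14.60 in the NOGGIN-labelled cultures and 14.39 and 14.40 in the control-labelled cultures. The ratio of 0.23 ± 0.044 had a limma adjusted p of 0.14 (95% interval 0.048 to 0.42).

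Rara had log2 signals of 13.98 and 13.84 in the NOGGIN-labelled cultures and 14.14 and 14.07 in the control-labelled cultures by its brighter probe, a ratio of -0.20 ± 0.055 (adjusted p = 0.202, limma). Its other probe gave -0.14 ± 0.074. Both probes had ratios a little below 0 on both arrays.

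Rarb is itself a well-known target of retinoic acid through the repeat printed above. By its brightest probe it had log2 signals of 14.83 and 14.72 in the NOGGIN-labelled cultures and 14.75 and 14.79 in the control-labelled cultures. The groups overlapped, the arrays differed in sign, and the ratio was 0.0067 ± 0.11 (95% interval -0.20 to 0.21, limma adjusted p = 0.977). A second probe was at -0.098 ± 0.0076. The third, whose accession is another Rarb transcript, was dim: its log2 signals were 6.89 and 6.93 in the NOGGIN-labelled cultures and 7.17 and 7.50 in the control-labelled cultures.

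The lowest signal well above background was 6.62 and 6.84 in the NOGGIN-labelled channels and 6.89 and 6.60 in the control-labelled channels, so this dim Rarb probe was only just detected. It was well above background on 1 of 2 arrays in the NOGGIN-labelled channel and on 2 of 2 in the control-labelled channel. Its ratio of -0.42 ± 0.20 did not pass in limma with each probe tested alone (adjusted p = 0.0594). It passed under 6 of 9 other ways of processing, in which the ratio ranged from -0.98 to -0.40. The probe met the filter only through the control-labelled channel, where it was higher, so a pass is no support for a difference. It does not meet a filter that asks for signal above background in both conditions. The ratios of the Rarb probes differ in size, and the value of the gene is that of its brightest probe.

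**Figure D3:**
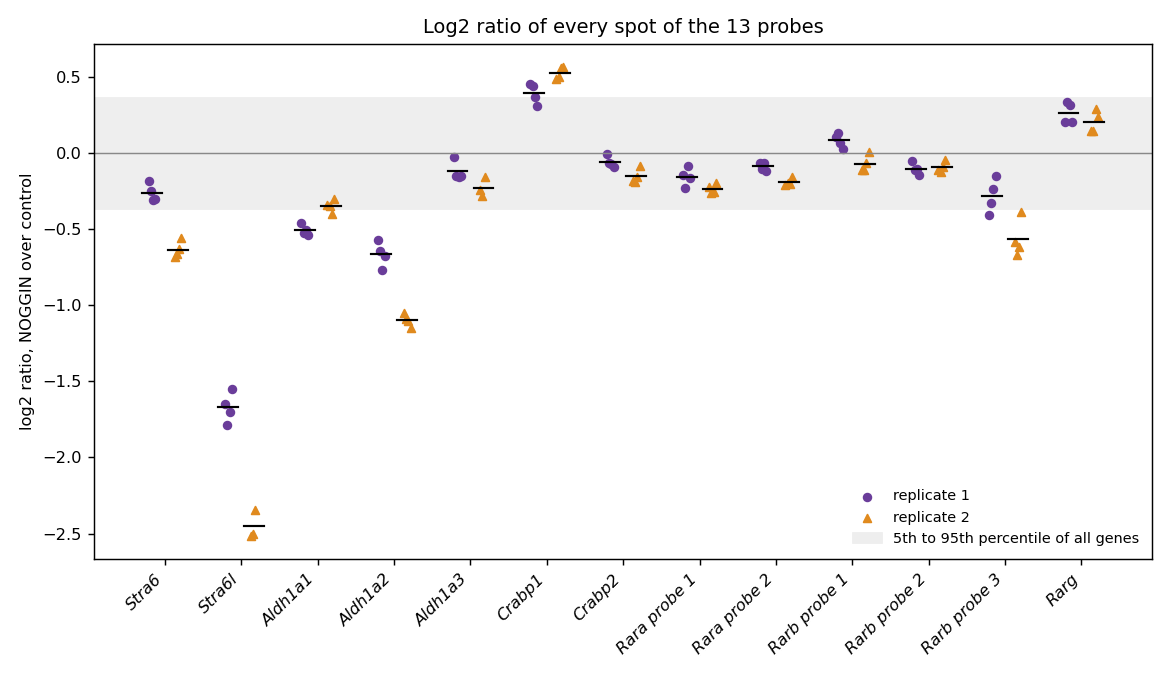
Log2 ratio of NOGGIN-labelled over control-labelled signal (vertical axis) of each usable spot of the 13 probes (horizontal axis), with circles for replicate 1, triangles for replicate 2, a bar at the mean of each array's spots and grey shading from the 5th to the 95th percentile of all genes (-0.37 to 0.36). The percentiles are of gene means over both arrays. Points are single spots on 1 array, so the shading does not measure how extreme a spot is. Spots of Stra6l and Aldh1a2 on both arrays, of Aldh1a1 on replicate 1, and of Stra6 and the dim Rarb probe on replicate 2 lie below the shading, those of Crabp1 lie around or above its upper edge, and all spots of Rara, of the first pair of Rarb probes and of Rarg lie within it.

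Genes with a ratio on each array most like that of a changed gene were found by Euclidean distance over the 2 arrays. Only genes with a symbol were taken, and predicted or clone names were passed over. Nearest to Stra6l were Thbd (thrombomodulin) at a distance of 0.169, the transcription factor gene Osr2 at 0.228 and the BK channel subunit gene Lrrc55 at 0.329. Nearest to Aldh1a2 were Septin11 (0.0223), Vstm2b (0.0437) and Eddm3b (0.0668). Aldh1a1 was nearest to Gnaz (0.00536), Serp2 (0.0147) and Stc1 (0.0165), and Crabp1 to Otulinl (0.00569), Dio2 (0.0157) and Pde11a (0.0185). Few genes have ratios as large as those of Stra6l, so its neighbours are farther away.

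The rest of the pathway was read from lists of genes in the same fit, with 4.03% of all genes called lower and 3.95% higher. Upstream of the ALDH1A enzymes, 26 genes for retinol transport, storage and oxidation were listed and 21 measured. Higher signals passed for 2 of them and a lower signal for 1, the other 18 missed the threshold, and the median ratio was 0.0056. Adh1, an alcohol dehydrogenase that oxidises retinol, had log2 signals of 13.09 and 13.31 in the NOGGIN-labelled cultures and 12.47 and 12.12 in the control-labelled cultures. The ratio was 0.90 ± 0.41 (1.87-fold, limma adjusted p = 0.0292).

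Ttr, the blood carrier of RBP4, was not well above background in the control-labelled channel of either array and was at least 1.31-fold higher in the NOGGIN-labelled channel. This is the mean NOGGIN-labelled signal over the lowest signal well above background, and the measured log2 signals were 7.06 and 7.20 in the NOGGIN-labelled cultures and 6.46 and 6.50 in the control-labelled cultures. Ttr is 1 of the 2 genes counted as higher above. It entered the fit only through the channel where it was high, so that call is no support for a difference. It drops out where a probe must be above background in both conditions. Rdh10, the retinol dehydrogenase that supplies the embryo with retinaldehyde, had log2 signals of 13.27 and 13.19 in the NOGGIN-labelled cultures and 13.62 and 13.56 in the control-labelled cultures. The ratio of -0.36 ± 0.020 passed narrowly (adjusted p = 0.0493, limma), and the call was lost under 5 other ways of processing.

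Of the degrading enzymes, Cyp26a1 was at 0.23 ± 0.16 (limma adjusted p = 0.21) and Cyp26b1 at -0.17 ± 0.027 (adjusted p = 0.255), so 0 of 2 measured genes passed. Of the RXR genes, partners of the RARs on DNA, 1 of 3 was higher. Rxra was at 0.51 ± 0.0065 (adjusted p = 0.021, limma) by its brightest probe and at 0.12 by another, and the call was lost with the mean of its probes (adjusted p = 0.0601) and with median centring alone (adjusted p = 0.131). Rxrb was at -0.027 and Rxrg at -0.020, with another Rxrg probe at 0.65.

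Among 17 measured corepressors and coactivators of nuclear receptors, 1 was higher and 0 lower, with a median of -0.015. Tbl1xr1, part of a corepressor complex, was at 0.47 ± 0.056 (limma adjusted p = 0.0279), although its other probe was at 0.16 and the call was lost under 4 other ways of processing. The acetyltransferase gene Kat2b, at 0.32 ± 0.012, did not pass in limma (adjusted p = 0.0641).

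Genes known from other systems to respond to retinoic acid were also listed, and few of them passed. Over all genes 3.95% were called higher and 4.03% lower. Of 34 listed, 32 were measured, of which 3 were higher, 1 lower and 28 did not pass, with a median of 0.019. The list includes Rarb, Crabp2 and Stra6, described above. Tlx2, a homeobox gene known in mouse embryos also as a target of BMP signalling, had log2 signals of 13.23 and 12.60 in the NOGGIN-labelled cultures and 11.77 and 10.97 in the control-labelled cultures. Every NOGGIN-labelled culture was higher, and the ratio was 1.54 ± 0.13 (2.92-fold, limma adjusted p = 0.00341). Tgm2, a transglutaminase gene with a known retinoid response element, had 13.97 and 13.83 in the NOGGIN-labelled cultures and 14.92 and 15.16 in the control-labelled cultures, on the same log2 scale. It was the one gene of the list that was lower, at -1.14 ± 0.27 (2.21-fold, adjusted p = 0.00839, limma), and its second probe was at -1.03. Rarres1 was at 0.78 ± 0.29 (adjusted p = 0.0228, limma) and Gprc5b, an orphan receptor gene, at 0.57 ± 0.048 (adjusted p = 0.0168, limma).

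**Figure D4:**
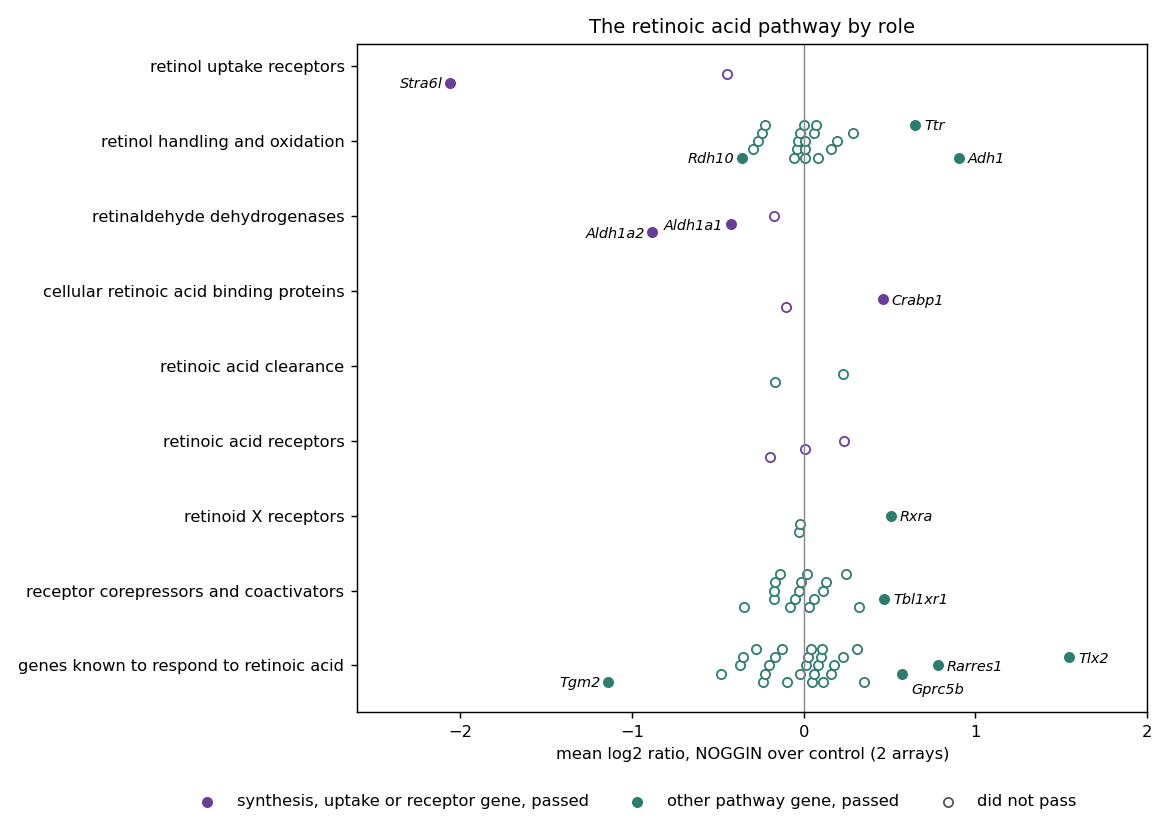
Mean log2 ratio of NOGGIN-labelled over control-labelled signal over the 2 arrays (horizontal axis) for the retinoic acid pathway, grouped by role (rows), with the 10 synthesis, uptake and receptor genes in purple and other genes in green, filled where the gene passed in limma and open where it did not. Points are shifted vertically for visibility, and the 10 genes are left out of the lowest row. Uptake receptors and retinaldehyde dehydrogenases lie left of 0, from -2.06 to -0.17, while most genes of the other rows lie near 0.

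Gene families related by sequence were set beside them. Of 9 measured aldehyde dehydrogenase relatives 0 passed in limma, with a median of -0.048. Aldh1b1 was at -0.30 (adjusted p = 0.113), Aldh1l2 at -0.26 (adjusted p = 0.133) and Aldh1l1 at -0.18. Of 7 measured lipid binding proteins of the family that holds the CRABPs, 1 was lower and 0 higher, with a median of -0.016. That gene was Fabp4, a fatty acid carrier, at -0.44 ± 0.15 (limma adjusted p = 0.0454), and its call was lost under 5 other ways of processing. Fabp3 was at -0.27 and Fabp5 at 0.090.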

How the data were processed

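Spot intensities, linear and 1 per channel, come from the authors' deposited scanner output. The submitters' processing notes name Agilent Feature Extraction, version 10.7.3.1. The log10 ratio in these files is the software's own value per the file headers and was not used. The authors' deposited table holds a score, a signed fold change per probe with ratios under 1 as negative reciprocals, whose normalisation and direction are not given in the sources used here. On replicate 1 the NOGGIN sample carried Alexa Fluor 555 and on replicate 2 Alexa Fluor 647, per the labels.

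Intensities were background-corrected with normexp (offset 50) and normalised by loess within arrays (control and outlier spots, 3.69% per array, at weight 0). The 4 spots of a probe were averaged. Levels per culture used Aquantile scaling as well. Probes entered when, in at least 1 condition, over 0.5 of the spots on each array were well above background, and the brightest such probe stood for its gene. Accessions were matched without versions to a RefSeq gene table of GRCm38.p6, which named 28328 probes and left 11101 under the files' own names. Of 21337 genes kept, 15805 have a symbol.

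The test of each log2 ratio against 0 was two-sided, by limma 3.58.1 (lmFit, eBayes; R 4.3.3), with Benjamini-Hochberg adjustment over 21337 genes. There was 1 residual degree of freedom and 4.12 prior ones around a prior SD of 0.113. Precision is limited by the 2 arrays. The steps were tested on simulated data. Counts of genes called higher or lower refer to an adjusted p under 0.05.

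Genes named are the 10 chosen ones, and the genes past the threshold and the 3 largest ratios of each pathway or family list. Also named are the 2 largest ratios of each check or marker list, and the 3 genes with a symbol nearest to each changed gene. Some genes that this rule names are left out. Aldh1a7, added for its sequence likeness, and the markers Foxa1, Col1a2, Ptch1, Upk3b and Podxl fall outside it and were named after their values were seen. Members and lists were chosen with earlier results of these data known. Alternatives were other background corrections, scalings, filters, spot and probe summaries, the deposited table, other models and thresholds, and each array alone.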

Additional observations from a re-analysis of the deposited data

How the results depend on the processing

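Among 10 genes, the counts of 3 lower and 1 higher were each 0 where arrays were only centred on their median without loess; there limma called 0 of all genes (3572 with an unadjusted p under 0.05, 6 of the 10 genes among them), while 2 genes were still at least 1.5-fold lower on both arrays. With the authors' deposited table, its sign turned, 2 were lower and 0 higher (Aldh1a1 and Crabp1 missed the threshold). At a fold of 2, 1 gene, Stra6l, was lower on both arrays. The ratio of Rarb, close to 0, turned negative with median centring alone (-0.0795), the median of spots (-0.000221), the mean of its probes (-0.172) and the authors' deposited table (-0.0279). Stra6l and Aldh1a2 were called lower under 12 of 13 alternatives with a test, median centring being the exception (adjusted p = 0.099 and 0.0956), and their ratios ranged from -2.61 to -2.06 and from -0.98 to -0.88. Crabp1 was called under 11 of 13. Stra6 passed under 1, quantile scaling (adjusted p = 0.0388). On single arrays, which allow no test, 2 to 3 genes were at least 1.5-fold lower and 0 higher. Quantile scaling called 2391 genes in all, against 1701. The medians of all genes stayed within 0.038 of 0. The 2 arrays limit the precision, and signals near 6.6 to 6.9 lie at the background limit.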
